A study of Mus musculus with 22 samples.

Results

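The genes described here are those of the mouse proteasome. They were taken as all genes of the Ribo-Seq tables whose symbol starts with Psma, Psmb, Psmc, Psmd, Psme, Psmf or Psmg followed by a digit, and they were joined to the RNA-Seq files by Ensembl gene ID. The rule matched 51 of 23081 genes in the Ribo-Seq tables, and 48 of the 51 were also among the 22623 genes of the RNA-Seq files. Psmb11, Psme4 and a second entry for Psmd14 (ENSMUSG00000090649) had footprint values only. Of the matches, Psmc3ip, a recombination factor named for its binding to Psmc3, and the pseudogene-like Psme2b-ps are not subunits, which left 48 distinct proteasome genes.

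The cells were neural stem cells (NSCs) cultured from the cortex of mouse embryos. In the overexpression experiment, cells carrying a doxycycline-inducible Msi1 or Msi2 transgene (tetO-Msi1, tetO-Msi2) and the KH2 control line were kept for 72 hr with no Dox or with Dox at 1 µg/ml, at E12.5; the E13.5 cultures were untreated KH2 cells and tetO-Msi1 cells in both conditions. In the knockout experiment, floxed Msi1/Msi2 cells with an inducible Cre (line C4) and floxed cells without Cre (line C1) were kept for 48 hr without or with 4-hydroxytamoxifen (4-OHT), all at E12.5. Poly(A)+ RNA-Seq covered all of these in 14 samples, and Ribo-Seq, in 8 samples, was limited to the E12.5 cultures of all lines but tetO-Msi2. There was 1 library per condition, apart from a technical pair for untreated tetO-Msi1 cells at E13.5 that was summed here, so tests used lines or stages as repeats and their p-values measure only the spread between these libraries.

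The proteasome degrades ubiquitin-tagged proteins, and dividing progenitor cells depend on it to remove cyclins and other short-lived regulators. Its 20S core is a barrel of stacked rings in which every position is filled by 1 defined alpha (Psma) or beta (Psmb) subunit, and a 19S cap on the barrel recognizes, unfolds and feeds in substrates with a ring of ATPases (Psmc) and a set of non-ATPase subunits (Psmd). Interferon swaps the catalytic beta subunits for the immunoproteasome forms Psmb8, Psmb9 and Psmb10, and dedicated chaperones (Psmg genes for the core, Psmd5, Psmd9 and Psmd10 for the cap) assemble the particle.

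Gene counts summed to between 7889966 and 60791605 per RNA-Seq library and between 657288 and 6381242 per Ribo-Seq library, and the proteasome genes took 0.552% to 0.783% and 0.109% to 0.899% of them. The lowest share was that of the untreated KH2 Ribo-Seq library, and the highest that of untreated C1 cells, the deepest of the 8. The reads assigned to genes were 14.9% to 15.8% of those behind the deposited RPKM (reads per kilobase of counted exon, scaled to the reads of the library) in the E12.5 overexpression RNA-Seq libraries and 28.2% to 34.1% in all others, and 7.46% to 32.1% in the Ribo-Seq libraries. The RPKM of the median gene was higher in the floxed than in the tet lines at E12.5, by 1.05 on the log2 scale in mRNA and 1.01 in footprints, and tested differences between lines and stages are given relative to all genes. Msi1 mRNA was 19.7 RPKM without and 108 with Dox in tetO-Msi1 cells at E12.5 and 50.5 and 208 at E13.5, Msi2 was 23.2 and 128 in tetO-Msi2 cells, and Msi2 in C4 cells was 39.5 before and 4.54 after 4-OHT. Msi1 over its counted exons was 9.46 RPKM before and 9.42 after 4-OHT in C4 cells, so these counts did not show its deletion.

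At the mRNA level every proteasome gene in the RNA-Seq files except Psma8 had reads in every library. The subunits of the 20S core were spread over a wide range. Psmb1, a non-catalytic beta subunit, was the highest of the beta subunits at 97.3, 149 and 233 RPKM (lowest, median and highest of 13 libraries). Psma7, an alpha-ring subunit, was the highest of the alpha subunits at 53.3, 103 and 197 RPKM. The lowest were Psma3 of the alpha ring at 3.41, 5.42 and 17.03 RPKM, Psma5 of the alpha ring at 7.44, 16.8 and 27.2, and Psmb3 of the beta ring at 6.44, 20.3 and 35.8. The ranges of Psma3 and Psma7 did not overlap, nor did those of Psmb3 and Psmb1, although each ring position of the assembled core holds these subunits in equal number. These values are per kilobase of counted exon, and near-identical copies of some of these genes limit how far they can be compared.

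**Figure D1:**
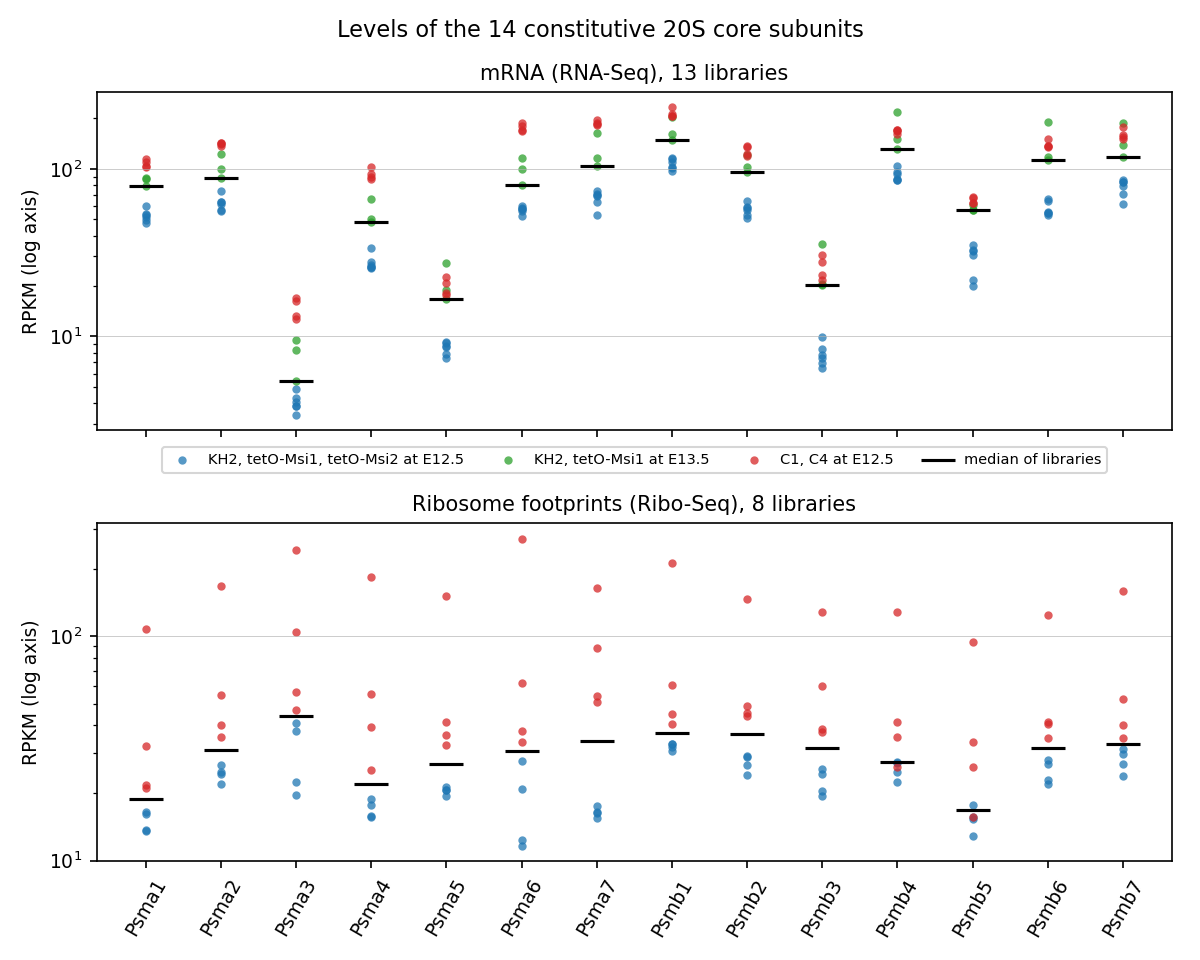
RPKM (log axis) of the 14 constitutive 20S core subunits in mRNA (top, 13 libraries) and ribosome footprints (bottom, 8 libraries), with 1 point per library coloured by experiment and a black bar at the median. Psma3, Psma5 and Psmb3 sit lowest in mRNA, at medians of 5.42, 16.8 and 20.3, whereas in footprints Psma3 has the highest median, 44.0.

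The 19S subunits lay closer together. Among the ATPases, Psmc3 was highest at 34.2, 96.2 and 143 RPKM and Psmc2 lowest at 16.7, 46.0 and 95.04. Among the non-ATPase subunits, Psmd8 was highest at 60.7, 94.5 and 161 RPKM and Psmd12 lowest at 20.6, 37.4 and 101. The ranges of the highest and lowest gene overlapped in each of these groups. The assembly chaperones had lower mRNA levels than most of the subunits they help to place: Psmd10, Psmd5 and Psmd9, which bind the ATPases before the cap closes, had medians of 11.8, 20.5 and 29.1 RPKM, and the core chaperones ran from Psmg1 at 17.1 to Psmg4 at 29.0. Of the activators that can replace the 19S cap, nuclear Psme3 had 13.2, 44.3 and 97.2 RPKM, though over only 97 counted bases, Psme1 had 16.2, 21.97 and 38.0, and Psme2 had 2.75, 7.57 and 11.6. The inhibitor Psmf1 had a median of 21.2 RPKM.

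Footprints put the same core subunits in a different order. Psma3 was among the highest, at 19.7 and 37.7 RPKM in KH2 cells without and with Dox, 22.4 and 40.9 in tetO-Msi1 cells, 241 and 104 in C1 cells without and with 4-OHT, and 56.5 and 47.0 in C4 cells. Psmb1 had 33.1, 32.0, 33.0, 30.7, 211, 60.3, 44.9 and 40.7 RPKM in the same libraries. Psma3 footprints thus exceeded those of Psmb1 in 6 of 8 libraries, while its mRNA lay below that of Psmb1 in 13 of 13. Psmb3 and Psma5 had median footprints of 31.6 and 26.9 RPKM, above the 18.8 of Psma1 and the 16.7 of the catalytic subunit Psmb5. The untreated C1 library was the highest for each of these 6 genes.

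The subunits with low mRNA values have near-identical copies elsewhere in the genome. Every 30-base stretch of each coding sequence was looked up in the mm9 assembly (NCBIM37), and the share found at a second place was 91.7% for Psma3, 89.4% for Psma5, 84.7% for Psmb3, 79.2% for Psme2, 78.1% for Psmb5 and 60.4% for Psma4. It was above 10% for 16 of the 51 genes and 0% for 28. For Psma3 the nearest copy is annotated as the pseudogene Gm13835, for Psma5 as the pseudogene Gm12989 and for Psmb3 as the pseudogene Gm6467, which lies within Map3k13. Exon sequences are printed here because a read from them can match more than 1 place: the last coding exon of Psma5 (chr3:108082653-108082730, plus strand) recurs without a mismatch at chr4:135271783-135271860 on the minus strand, and a coding exon of Psmb3 (chr11:97568112-97568219, plus strand) recurs with 1 mismatch, in capitals, at chr16:21896767-21896874 on the plus strand. The exon of Psma3 (chr12:72079720-72079806, plus strand) is one of those listed for the footprint counts. In the listed exons of Psma3, 9.26% of the 30-base stretches recur exactly elsewhere. A copy of this exon with mismatches was not searched for. Coordinates are of NCBIM37.
Psma5 exon: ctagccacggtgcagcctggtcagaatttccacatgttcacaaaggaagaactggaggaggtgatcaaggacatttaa
Psmb3 exon: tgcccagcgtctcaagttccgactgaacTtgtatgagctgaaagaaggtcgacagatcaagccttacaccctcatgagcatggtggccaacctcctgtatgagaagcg
Psmb3 copy: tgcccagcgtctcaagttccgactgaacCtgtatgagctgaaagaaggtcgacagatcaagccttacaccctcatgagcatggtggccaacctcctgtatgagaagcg
Psma3 exon: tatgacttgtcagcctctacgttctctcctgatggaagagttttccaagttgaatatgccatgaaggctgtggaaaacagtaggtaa
All coding exons of at least 60 bases were compared with the copy without gaps, so an inserted or missing stretch also counts as mismatches. The copy of Psma5 differed from the gene at 32 of 638 bases in 7 exons, and a single exon held 26 of these mismatches. That of Psmb3 differed at 56 of 566 bases in 4 exons, and a single exon held 50.

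The spread of the core differed between the assays. The SD of log2 RPKM over the 14 constitutive core subunits was 1.22 to 1.55 in mRNA (median of 13 libraries 1.37) and 0.381 to 0.476 in footprints (median of 8 libraries 0.442). The highest subunit exceeded the lowest by 12.1-fold to 34.0-fold in mRNA, and by 2.41-fold to 3.24-fold in footprints. Over all genes the median SD was 2.27 in mRNA and 1.95 in footprints, so the core was narrower than the transcriptome in both and by far more in footprints. Among the 5 core subunits with at most 10% of their coding stretches elsewhere, a choice made after seeing the data, the median SD was 0.336 in mRNA and 0.490 in footprints. The 19S ATPases had 0.407 in mRNA and 0.315 in footprints, and the 19S non-ATPases 0.485 and 0.547.

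The share of a subunit's coding sequence found elsewhere tracked its mRNA value and not its footprint value. Over the 14 core subunits Spearman's rho between that share and the level was -0.72 to -0.61 in the 13 mRNA libraries and -0.0066 to 0.23 in the 8 footprint libraries. These are descriptions over subunits of 1 complex, which share their libraries. The order of the core subunits was alike between mRNA libraries, with rho from 0.82 to 1, and less so between footprint libraries, with rho from -0.12 to 0.92, and within a library the mRNA and footprint orders had rho from 0.13 to 0.47. The exons counted differ between the assays: for Psma3, 347 bases were counted in RNA-Seq and 108 bases in Ribo-Seq, and only 9.26% of the 30-base stretches of the latter recur elsewhere, against 89.5% for Psma5 and 81.1% for Psmb3. How reads with several possible places were counted is not given in the sources used here, and the part of the copies in these levels was not tested.

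Translational efficiency (TE), the footprint RPKM of a gene divided by its mRNA RPKM, carried the same pattern. Psma3 had the highest median TE at 6.86 (2.88 to 18.9 over 8 libraries), followed by Psmb3 at 2.69 (1.25 to 5.91), Psma5 at 2.36 (1.44 to 8.32) and Psme2 at 1.58. Psme2b-ps, with no footprints in any library, had a TE of 0, and above it the lowest were Psmc3ip at 0.129, Psmd8 at 0.165 and the ubiquitin receptor Psmd4 at 0.17. Class medians were close together at 0.4002 for alpha subunits, 0.381 for beta subunits, 0.290 for ATPases and 0.325 for 19S non-ATPases, while the SD of log2 TE was 1.46 in the core and 0.293 among the ATPases (medians over libraries; 1.17 over all genes). Over 43 members the copy share and the median TE had a Spearman's rho of 0.66, given as a description, so the high TE of Psma3, Psmb3, Psma5 and Psme2 stood beside the 4 highest copy shares.

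**Figure D2:**
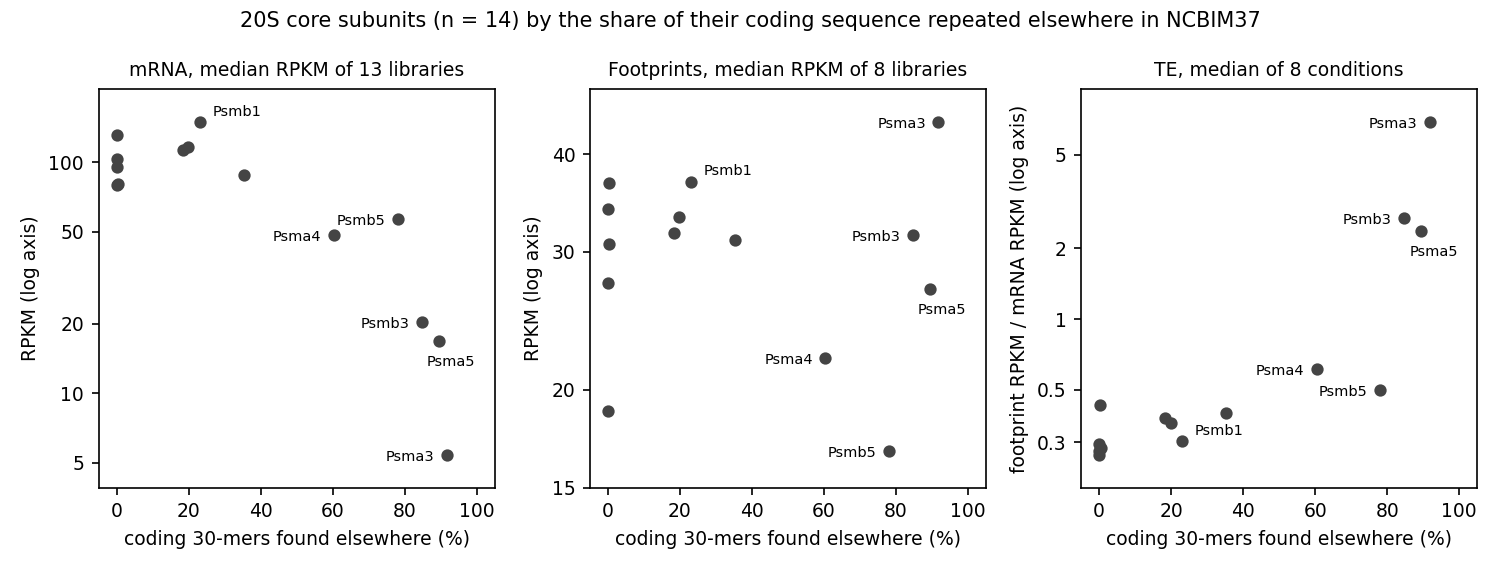
Median mRNA RPKM, footprint RPKM and TE (log axes) of the 14 constitutive core subunits against the percent of their coding 30-base stretches found elsewhere in the genome. The mRNA level falls and the TE rises along the axis (median Spearman's rho over libraries -0.69 and 0.81), and the footprint level does neither (0.10).

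The inducible catalytic subunits were low in these cells. Psmb8 mRNA was 0.345, 0.637 and 1.29 RPKM (lowest, median, highest of 13 libraries), from 20 to 86 reads, and Psmb9 mRNA was 0.311, 1.07 and 2.46 RPKM, from 6 to 55 reads. Psmb10 was higher, at 4.95, 6.86 and 17.2 RPKM. Set against the constitutive subunit that each replaces, Psmb8 made up 0.55% to 3.72% of the summed mRNA RPKM of Psmb8 and Psmb5, Psmb9 made up 0.483% to 3.77% of that of Psmb9 and Psmb6, and Psmb10 made up 5.26% to 8.88% of that of Psmb10 and Psmb7. In footprints the same shares were 0% to 2.48%, 0% to 5.84% and 1.44% to 9.05%. The constitutive forms thus held most of each pair in every library. The testis-specific alpha subunit Psma8 was at 0 in 11 of 13 mRNA libraries and at most 0.0237 RPKM in the others, and the thymus-specific Psmb11 had no footprints in any of the 8 libraries, nor did Psma8.

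**Figure D3:**
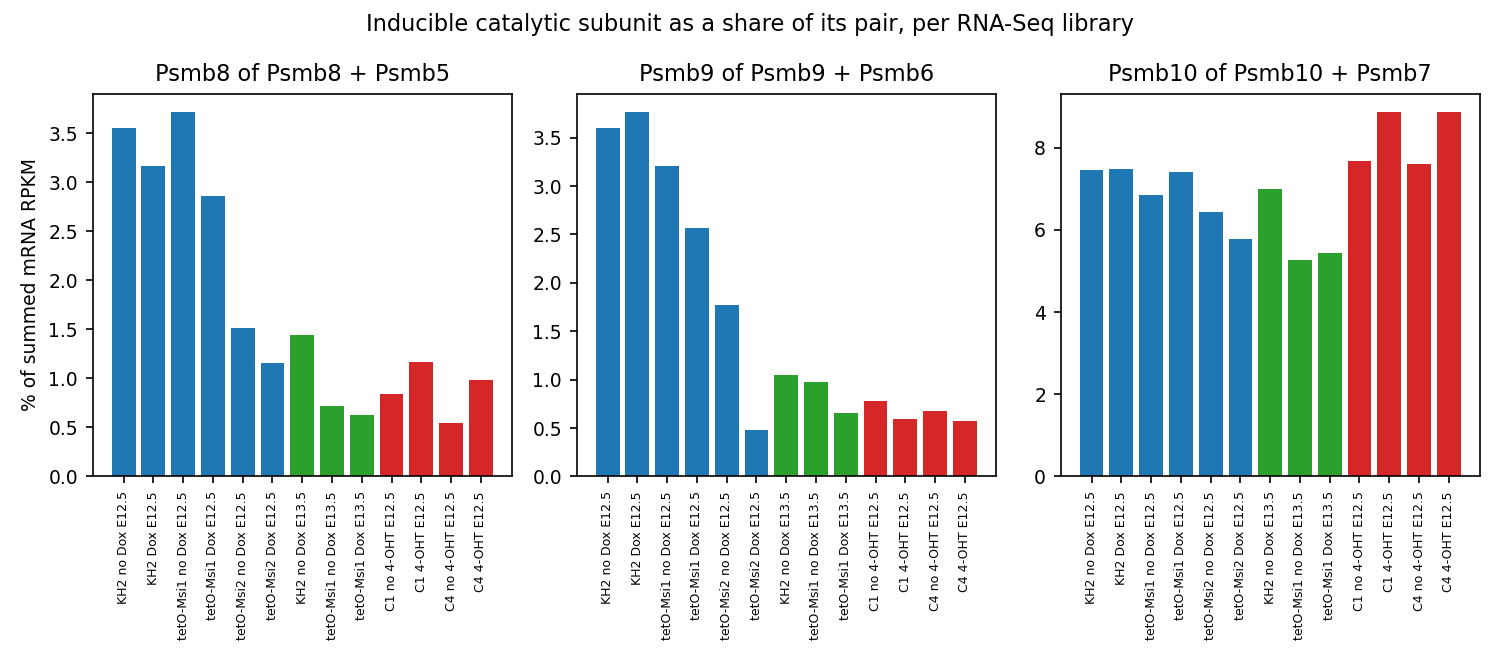
Bars from 0 give the percent that Psmb8, Psmb9 and Psmb10 contribute to the summed mRNA RPKM of the inducible and constitutive subunit at the same site (Psmb5, Psmb6, Psmb7), in each of 13 RNA-Seq libraries. Psmb10 stays between 5.26% and 8.88%, and Psmb8 and Psmb9 reach at most 3.72% (untreated tetO-Msi1 cells at E12.5) and 3.77% (KH2 cells with Dox).

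Msi1 overexpression moved no proteasome mRNA past the test. In tetO-Msi1 cells over both stages 0 of 47 members tested passed an adjusted p of 0.05 (edgeR's quasi-likelihood test with Benjamini-Hochberg adjustment), 1 had an unadjusted p under 0.05, and DESeq2 called 0, where 3.6% of 11938 genes were called. Over the 4 Dox pairs, KH2 included, 0 of 47 passed, 1 had an unadjusted p under 0.05, DESeq2 called 0, and 0.51% of 12167 genes were called. The median member changed by -0.08 on the log2 scale with Dox in tetO-Msi1 cells. The 1 gene with a low unadjusted p was Psmd7 in both, a 19S lid subunit that holds the deubiquitinase Psmd14 in place. Psmd7 mRNA went with Dox from 30.3 to 31.4 RPKM in KH2 cells, from 28.9 to 36.5 in tetO-Msi1 cells at E12.5, from 69.8 to 97.7 in tetO-Msi1 cells at E13.5 and from 27.9 to 37.2 in tetO-Msi2 cells. It was higher with Dox in 4 of 4 pairs, least so in the line without a Msi transgene, with a log2 change of 0.30 (SE 0.08, edgeR adjusted p = 0.106). Psmd7 passed the test without the KH2 pair (0.37, edgeR adjusted p = 0.0444) and with no filter on low counts (0.30, edgeR adjusted p = 0.0295). A difference between the lines in the Psmd7 response was not tested, and the gene was picked for its low p.

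Treatment with 4-OHT moved 2 members in mRNA, by small amounts, over the lines with and without Cre. Psmd5, a chaperone of the ATPase ring, went from 66.3 to 56.3 RPKM in C1 cells and from 57.8 to 49.6 in C4 cells and fell by 0.26 on the log2 scale (SE 0.06, edgeR adjusted p = 0.0414). Psmc3ip, which is no subunit, went from 12.9 to 16.9 RPKM in C1 cells and from 12.4 to 18.9 in C4 cells and rose by 0.46 (SE 0.11, edgeR adjusted p = 0.0485). These 2 of 46 members tested stand against 5.5% of 11626 genes, and the share is no higher than this background. The fit pools C1 with C4, so 4-OHT treatment and deletion cannot be told apart in either value. A difference between the lines was not tested. DESeq2 and RLE size factors each called 1 member, Psmd5, and neither passed in a fit without the line as a block.

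Footprints and TE gave little more. With 4-OHT, 0 of 47 members passed in footprints (edgeR; 1 with an unadjusted p under 0.05, Psmb10; DESeq2 0) with 0.934% of 12426 genes called, and 0 of 44 passed in TE (edgeR; 1 with an unadjusted p under 0.05; DESeq2 0) with 0% of 10490 genes called. With Dox in KH2 and tetO-Msi1 cells, 0 of 46 passed in TE (edgeR; 0 with an unadjusted p under 0.05; DESeq2 0) with 0.0791% of 10111 genes called. In Dox footprints 1 of 48 passed, with 0.633% of 11526 genes called: the second Psmd14 entry, at 16 reads without and 7 with Dox in KH2 cells and 263 without and 9 with Dox in tetO-Msi1 cells, a log2 difference of -2.51 (SE 0.40, edgeR adjusted p = 1.1e-07). The value rests on the 263 reads of 1 library, DESeq2 and a fit without the line as a block did not call it, and the main Psmd14 entry had 52, 71, 134 and 55 reads in the same order.

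Single pairs of libraries show the members' response line by line, with no test, since each pair compares 2 libraries. Values are log2 ratios less the median of all genes, with 95% intervals that cover counting error only, and genes needed over 20 reads in each library. Past 1.5-fold in mRNA were 1 of 44 members with Msi1 at E12.5 (6.25% of all genes), 3 of 47 with Msi1 at E13.5 (12.7%), 1 of 46 with Msi2 (5.7%), 1 of 47 in KH2 cells (2.58%), 1 of 47 in C1 cells (4.05%) and 1 of 47 in C4 cells (9.78%). Each share was below that of all genes. The gene in tetO-Msi1 cells at E12.5 was Psme3, at 0.65 (0.33 to 0.97), from 15.3 to 23.9 RPKM, while at E13.5 the genes were Psmb9 (-0.72), Psma3 (-0.70) and the ATPase Psmc6 (-0.59, from 93.5 to 66.2 RPKM). Psmb3 was the gene with Msi2 (0.59, from 6.44 to 9.85 RPKM) and Psme2 the gene with Dox in KH2 cells (0.59). Psmb8 was the gene with 4-OHT in both floxed lines, at 0.59 (0.08 to 1.09) in C1 cells, from 0.534 to 0.800 RPKM, and 0.87 (0.25 to 1.503) in C4 cells, from 0.345 to 0.662. Psmb8 and Psmc3ip were the largest and second-largest rises in both lines, and no Dox pair had Psmb8 among its rises past 1.5-fold. The read limit left Psmb8 out of the tetO-Msi1 pair at E12.5, where it had 20 reads with Dox.

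In footprints, past 1.5-fold were 1 of 31 members in tetO-Msi1 cells (15.1% of all genes), 3 of 33 in KH2 cells (9.94%), 3 of 42 in C1 cells (20.2%) and 5 of 43 in C4 cells (20.8%). Psma3 was higher with Dox in tetO-Msi1 cells, at 0.83 (0.26 to 1.41), and by as much in KH2 cells, at 0.84 (0.12 to 1.56), and so did not set the Msi1 line apart from its control. The interferon-inducible activator Psme1 (-1.09) and Psmd4 (-0.67) were lower with Dox in KH2 cells. With 4-OHT the C1 line had Psmb10 at 1.27 (0.83 to 1.71), Psmg4 at 0.94 and Psma6 at -0.70, and the C4 line had Psma4 at 0.76, Psmg3 at 0.76, Psmb5 at -0.61, Psme2 at -0.79 and the scaffold subunit Psmd1 at -0.92. The log2 ratio of the median gene was -1.44 with 4-OHT in C1 footprints, and that pair is read only relative to this shift.

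In TE, past 1.5-fold were 3 of 31 members in tetO-Msi1 cells (10.9% of all genes), 3 of 33 in KH2 cells (10.8%), 4 of 41 in C1 cells (17.5%) and 6 of 42 in C4 cells (17.7%). In tetO-Msi1 cells Psmg3, Psme2 and Psma3 were higher with Dox (0.78, 0.74 and 0.66), and in KH2 cells Psme1, Psmd4 and Psme2 were lower (-1.18, -0.66 and -0.63). In C4 cells Psmg3 (0.99), Psma4, Psmd5 and Psme3 were higher and Psmb5 and Psmd1 (-0.79) lower with 4-OHT, and in C1 cells Psmb10 (1.14) and Psmg4 were higher and Psme3 and Psma6 lower. Psme3 TE thus moved in opposite directions in the floxed lines, by -0.60 without Cre and 0.59 with it, and this difference was not tested.

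**Figure D4:**
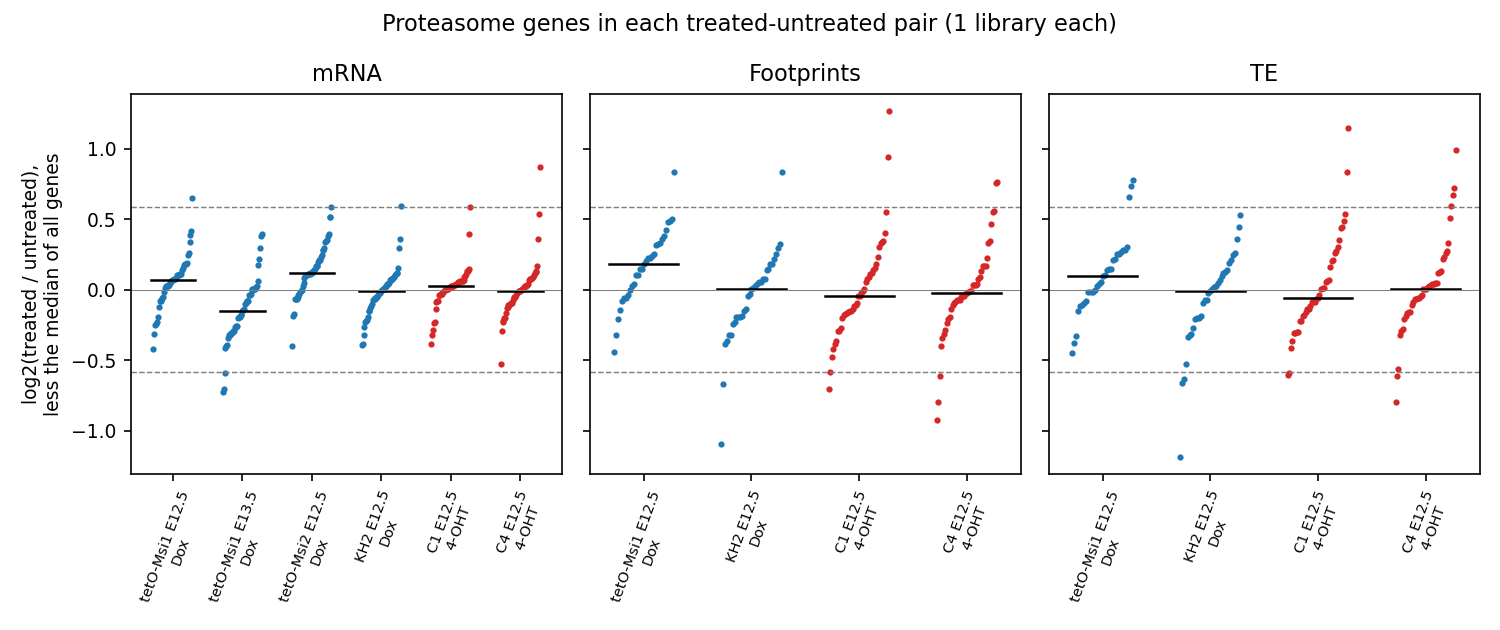
Log2 ratio of treated over untreated RPKM, or of TE, for each member (points) in each pair of libraries, less the median ratio of all genes; bars are the members' medians and dashed lines mark 1.5-fold. In mRNA 8 of 278 values lie outside the lines, in footprints 12 of 149 and in TE 16 of 147.

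As a group the members varied less with treatment than other genes. The SD of the members' log2 ratios was 0.155 to 0.237 in mRNA against 0.218 to 0.409 for all genes, 0.266 to 0.369 in footprints against 0.476 to 0.505, and 0.282 to 0.355 in TE against 0.430 to 0.499, and it was below that of all genes in 14 of 14 pairs. Proteasome mRNAs are abundant, and the smaller counting error of abundant genes was not separated from this.

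Between the stages 4 of 6 ATPases were higher and 2 of 3 inducible catalytic subunits lower at E13.5, where 50.8% of all genes passed. Stage and read assignment change together here and cannot be told apart. Untreated Psmc5, one of the ring of ATPases that unfold substrates, had 22.2 and 18.3 RPKM at E12.5 (KH2, tetO-Msi1) and 111 and 82.8 at E13.5. Psmc4 had 23.4 and 17.4 RPKM at E12.5 and 111 and 81.5 at E13.5, and Psmc2 had 18.7 and 16.7 against 71.7 and 57.7. These RPKM values are not centred on all genes. Relative to all genes the log2 rise was 1.28 for Psmc5 (SE 0.11, edgeR adjusted p = 6.08e-06), 1.27 for Psmc4 (edgeR adjusted p = 6.96e-06), 0.89 for Psmc2 (edgeR adjusted p = 7.15e-05) and 0.69 for Psmc3. Of 47 members tested, 18 passed (14 up, 4 down), where 50.8% of 11893 genes passed (3040 up, 2999 down), so the share that changed is below the background. The ATPases had 4 of 6 called and a class median of 0.79, the inducible catalytic subunits had 2 of 3 called and a class median of -1.43, and the median member changed by 0.14. Also higher at E13.5 were the 19S subunits Psmd2 (0.45), Psmd3 (0.42), Psmd4 (0.35), Psmd7 (0.51) and Psmd11 (0.51), the core subunits Psma5 (0.40), Psmb3 (0.85) and Psmb6 (0.36), and Psme3 (0.50) and Psmc3ip (0.88). Lower were the inducible subunits Psmb8 (-1.80) and Psmb9 (-1.43), the chaperone Psmd10 (-0.96) and Psmd8 (-0.29). Psmd10 stood at 11.7 to 12.45 RPKM in these 4 libraries, so its fall is one relative to the other genes. The fall of Psmd8 is likewise relative, since its uncentred RPKM was higher at E13.5 in KH2 and tetO-Msi1 cells.

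The floxed lines stood apart from the tet lines in the ATPases Psmc2, Psmc4 and Psmc5. The comparison shares the untreated E12.5 KH2 and tetO-Msi1 libraries with that of the stages. Untreated Psmc5 had 22.2, 18.3 and 17.8 RPKM in KH2, tetO-Msi1 and tetO-Msi2 cells at E12.5 and 129 and 131 in C1 and C4 cells. Psmc4 had 23.4, 17.4 and 18.6 RPKM in the tet lines and 117 and 131 in the floxed lines. Psmc2 had 18.7, 16.7 and 18.0 against 88.8 and 94.0. The groups were far apart for all 3, with log2 differences relative to all genes of 1.67 for Psmc5 (SE 0.11, edgeR adjusted p = 4.81e-05), 1.57 for Psmc4 (SE 0.14) and 1.28 for Psmc2 (SE 0.09). Psmc3, at 0.28, differed far less, and Psmc1 and Psmc6 did not pass.

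Of 47 members 29 passed between the lines (24 higher and 5 lower in the floxed lines), where 66.3% of 12211 genes passed (4028 higher, 4065 lower). The members' share is below that of all genes, and their direction is uneven where that of all genes is not. By class, 10 of 11 19S non-ATPase subunits, 4 of 6 ATPases, 4 of 7 alpha subunits and 1 of 7 beta subunits were higher. Psmd5, which binds the ATPase Psmc2 during assembly, had 12.8, 10.6 and 11.6 RPKM in the tet lines and 66.3 and 57.8 in the floxed lines (1.33, SE 0.10). Psmd12, a lid subunit, had 21.3, 20.6 and 21.4 RPKM against 91.4 and 99.7 (1.10), and Psmd7 had 30.3, 28.9 and 27.9 against 123 and 127 (1.03). These increases relative to all genes come on top of the shift of the median gene. Psme3 had 19.7, 15.3 and 13.2 RPKM against 94.4 and 90.8 (1.45). Relative to all genes, Psmb8 (-2.02), Psmb9 (-1.87), Psmd10 (-0.999), Psme1 (-0.56) and Psmb4 (-0.29) were lower in the floxed lines. The uncentred RPKM of Psmb4 and Psme1 was higher in the floxed than in the tet lines, and that of Psmd10 differed little. Without the C4 library 19 members passed (17 higher, 2 lower).

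**Figure D5:**
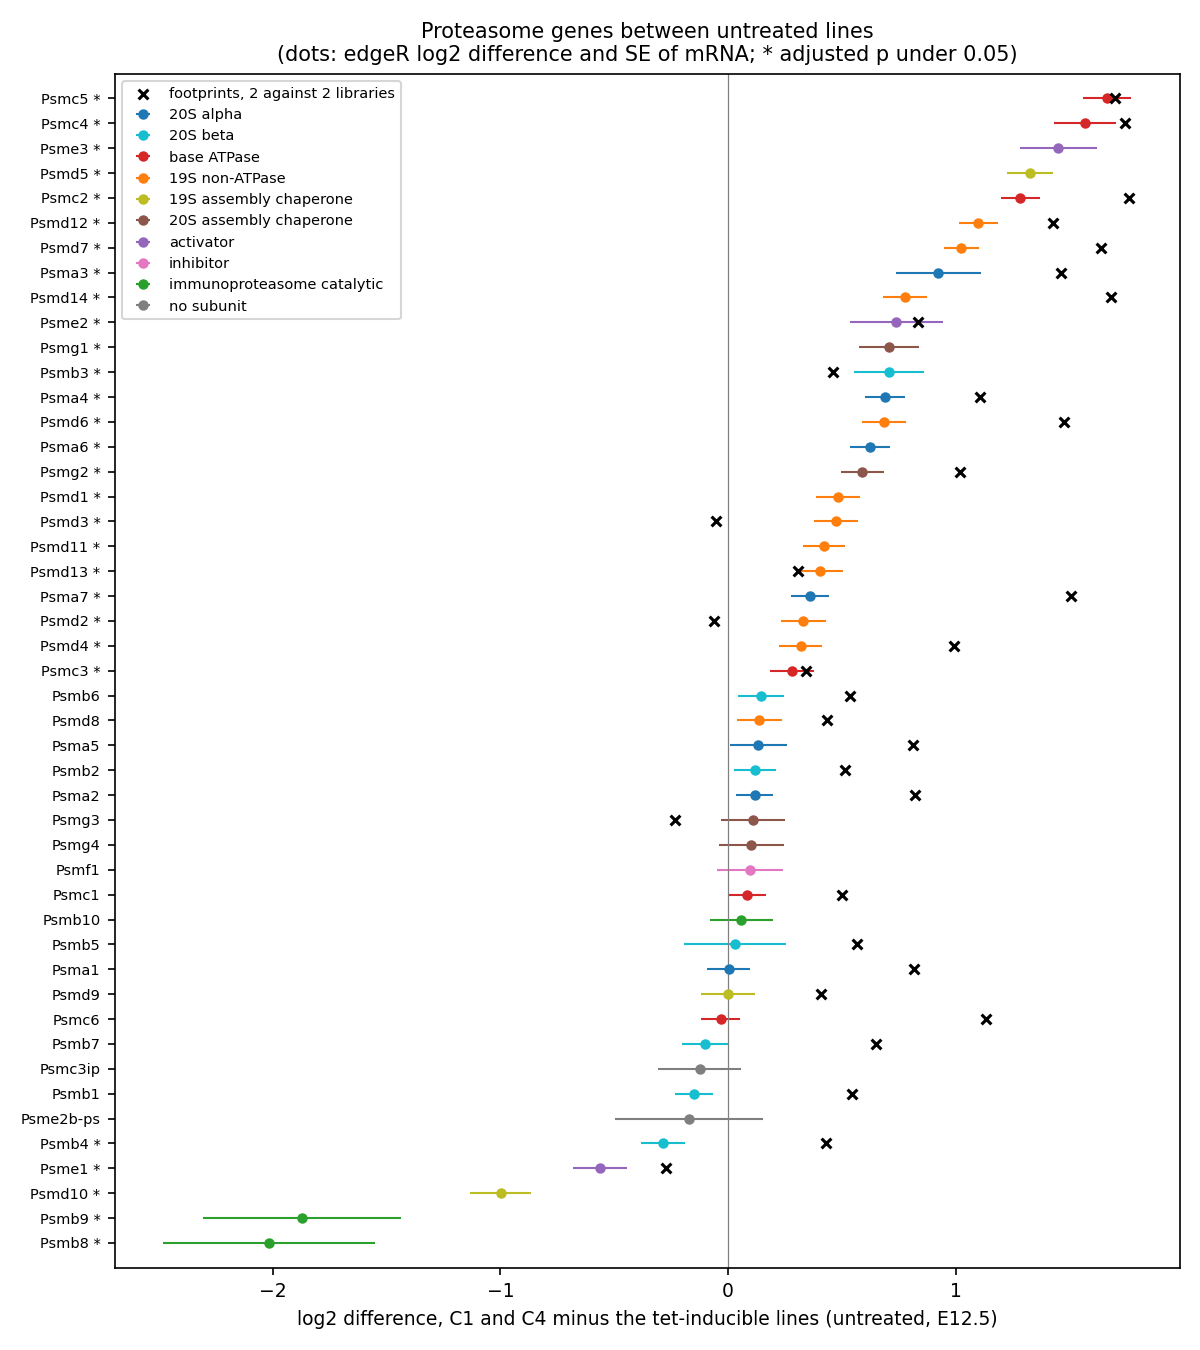
Log2 difference between untreated floxed (C1, C4) and untreated tet lines at E12.5 for the 47 members tested in mRNA (points with SE, from edgeR), coloured by class and ordered by size, with an asterisk at an adjusted p under 0.05 and a cross for the same difference in footprints (2 libraries against 2). Psmc5, Psmc4, Psme3, Psmd5 and Psmc2 lie highest, at 1.28 to 1.67, and Psmb8 and Psmb9 lowest, at -2.02 and -1.87.

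Footprints of the same lines differed in the same ATPases. Psmc2 footprints were 5.17 and 5.19 RPKM in untreated KH2 and tetO-Msi1 cells and 72.6 and 17.3 in C1 and C4 cells. Psmc4 had 5.58 and 6.74 against 73.2 and 23.4 RPKM, and Psmc5 had 4.54 and 6.36 against 77.6 and 15.96. Both floxed libraries were above both tet libraries for each gene, and C1 was far above C4. Less the median of all genes, the mean log2 difference was 1.76 for Psmc2 (1.73 to 1.80 over the 4 pairings of a floxed and a tet library), 1.74 for Psmc4 (1.43 to 2.05), 1.70 for Psmc5 (1.35 to 2.04), 1.68 for the deubiquitinase Psmd14 and 1.64 for Psmd7. At least 1.5-fold above the median in all 4 pairings were 17 of 33 members in footprints (19.6% of all genes) and 12 of 47 in mRNA (21%), and at least 1.5-fold below were 0 of 33 (20.5%) and 3 of 47 (21.7%). Psmc2, Psmc4, Psmc5, Psmd7, Psmd12 and Psmd14 were above in both assays, as were Psma3, Psma4 and Psmg2.

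Class by class, the median difference in mRNA and in footprints was 0.78 and 1.42 for the ATPases, 0.46 and 0.99 for the 19S non-ATPases, 0.28 and 0.97 for the alpha subunits and 0.14 and 0.54 for the beta subunits. Over the 33 members measured in both, the assays' differences had a Pearson's r of 0.76 and a Spearman's rho of 0.65, as a description over genes that share their libraries. Line, experiment, read assignment and depth change together here and cannot be told apart. In bulk samples fewer cells of a type and less RNA per cell also cannot be told apart.

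Some glial markers differed between these groups. Summed over the list, glial markers had 73.8 to 102 RPKM in the tet lines at E12.5, 208 to 294 in the tet lines at E13.5 and 431 to 489 in the floxed lines. These sums of RPKM are not centred on all genes. In the tet lines at E12.5 most of the sum was Olig2, at 67.5 to 89.3 RPKM. Relative to all genes, 4 of the 4 glial markers tested were higher in the floxed lines (66.3% of all genes called). The astrocyte filament gene Gfap differed there by 6.397 on the log2 scale, and Olig2 by 0.52. At E13.5, 2 of 4 were higher, a share near the 50.8% of all genes called. Gfap was at 3.75 there, and Olig2, at 0.20, was not called. Neural stem markers had 1846 to 2518, 4626 to 4781 and 4810 to 5340 RPKM in the same groups, but relative to all genes their median difference was -0.12 between the lines and 0.07 between the stages. Of the 7 tested between the lines, Nes was higher (1.44) and Hes5 (-4.90), Notch1 (-1.66) and Sox2 (-1.10) were lower, and between the stages 2 were higher and 3 lower. Neuronal markers had 7.29 to 10.9, 18.6 to 21.1 and 16.6 to 19.7 RPKM, with a median difference of -0.08 between the lines (1 of 4 higher, 1 lower) and of 0.13 between the stages (edgeR called 0 of 4, 2 with an unadjusted p under 0.05, and DESeq2 0). Microglial and blood markers had 0.353 to 0.818, 1.16 to 1.61 and 3.48 to 4.99 RPKM. Nearly all of this sum was Cd68, at 3.42 to 4.92 RPKM in the floxed lines. Aif1, Csf1r and Itgam were under 1 RPKM in every library, and Cx3cr1 was at 0 throughout. Endothelial markers had 0.0798 to 0.131, 0.16 to 0.233 and 0.242 to 0.348 RPKM. The part of the glial difference in the proteasome differences was not tested.

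Genes that work with the proteasome changed about as often as all genes did. Of 28 such genes, 22 could be tested in mRNA, and 0 passed with Dox in tetO-Msi1 cells (edgeR; 3 with an unadjusted p under 0.05), over the 4 Dox pairs (1) or with 4-OHT (1), nor did DESeq2 call any. In footprints 27 could be tested and 0 passed with Dox (0 with an unadjusted p under 0.05) or with 4-OHT (1), and in TE 0 of 22 passed in either (1 each), by edgeR and by DESeq2. Between the lines 13 of 22 were higher and 2 lower in the floxed cells, where 66.3% of all genes were called: the 19S ubiquitin receptor Adrm1 had a log2 difference of 1.92, the shuttle factor Ubqln4 1.45, the protease Ddi2, which activates the proteasome gene regulator Nfe2l1, 1.30, the deubiquitinase Usp14 1.03 and the core maturation factor Pomp 0.62, against -0.82 for the small 19S subunit Shfm1 and -0.66 for Zfand5. Between the stages 7 of 22 were higher and 4 lower at E13.5, where 50.8% of all genes were called, with Ddi2 at 0.88 and Adrm1 at 0.79, and with Zfand5 at -0.95 and the stress regulator Nfe2l2 at -0.63. The comparisons share control libraries.

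Antigen presentation and interferon genes are given beside Psmb8 and Psmb9, which interferon also induces. Of 10 tested between the lines, where 66.3% of all genes were called, 6 were lower in the floxed cells. Among them were the class I gene H2-K1 (-2.75), the interferon regulator Irf7 (-2.71) and the peptide transporter gene Tap1 (-1.91). Irf7 was under 1 RPKM in every RNA-Seq library, so its differences rest on values near the floor. Only 1, the peptidase Erap1 (0.76), was higher. At E13.5, where 50.8% of all genes were called, 5 of 10 were lower, with Irf7 at -2.04, B2m at -0.97, H2-K1 at -0.90, Tapbp at -0.46 and Tap1 at -0.43, and 0 were higher. With Dox in tetO-Msi1 cells H2-D1 (-0.71) and H2-K1 (-0.67) fell, DESeq2 called neither, and Psmb8 and Psmb9 did not pass. H2-K1 also went with Dox from 17.3 to 14.9 RPKM in KH2 cells and from 20.4 to 14.6 in tetO-Msi2 cells. H2-D1 went from 6.19 to 5.61 RPKM in KH2 cells and from 7.27 to 6.48 in tetO-Msi2 cells. A difference between the lines in these genes was not tested. Of this list 0 passed in edgeR over the 4 Dox pairs (3 with an unadjusted p under 0.05, DESeq2 1), with 4-OHT in mRNA (2, DESeq2 0) or in any test of footprints or TE (0, DESeq2 0).

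Promoter sequences are shown for 3 ATPases and the lid subunit Psmd12, which were higher in the floxed lines in both assays, and for Psmb5, a catalytic subunit with a match. RefSeq promoters (GRCm38.p6, 250 bases before to 50 after the start) were at hand for 40 of the proteasome genes. They were searched on both strands for TGACNNNGC (the antioxidant response element read by Nfe2l1 and Nfe2l2), CCAAT (the NF-Y box), CCGGAAGT (an ETS site) and GAAANNGAA (an interferon-stimulated element); these letters do not overlap one another in the 3 promoters with a match shown here. Matches are in capitals, and positions count from the start base as 0. The promoter of Psmc2 at chr5:21786497-21786796 (plus strand) held the ETS letters at -25 to -18 and the interferon letters at -8 to 0, while its other promoter, at chr5:21785025-21785324, held the ETS letters at -85 to -78 and CCAAT at -28 to -24. That of Psmd12 at chr11:107479278-107479577 (plus strand) held the antioxidant letters at -247 to -239 and the ETS letters at -18 to -11. The promoters of Psmc4 (chr7:28050043-28050342, minus strand) and Psmc5 (chr11:106255935-106256234, plus strand) held none of the 4. That of the catalytic subunit Psmb5 (chr14:54617946-54618245, minus strand), whose mRNA is the partner of Psmb8, held the antioxidant letters at -47 to -39.
Psmc2: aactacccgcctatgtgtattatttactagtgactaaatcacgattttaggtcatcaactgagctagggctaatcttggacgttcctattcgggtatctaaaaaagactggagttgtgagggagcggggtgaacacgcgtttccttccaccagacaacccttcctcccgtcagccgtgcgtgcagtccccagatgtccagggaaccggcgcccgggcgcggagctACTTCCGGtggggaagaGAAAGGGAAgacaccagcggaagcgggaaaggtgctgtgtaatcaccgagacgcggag
Psmd12: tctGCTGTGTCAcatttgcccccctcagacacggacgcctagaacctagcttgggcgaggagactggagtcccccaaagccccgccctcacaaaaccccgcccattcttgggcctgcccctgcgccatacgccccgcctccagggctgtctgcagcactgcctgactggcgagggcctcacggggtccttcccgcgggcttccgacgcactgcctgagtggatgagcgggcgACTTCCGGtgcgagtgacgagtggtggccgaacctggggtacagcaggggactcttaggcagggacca
Psmc4: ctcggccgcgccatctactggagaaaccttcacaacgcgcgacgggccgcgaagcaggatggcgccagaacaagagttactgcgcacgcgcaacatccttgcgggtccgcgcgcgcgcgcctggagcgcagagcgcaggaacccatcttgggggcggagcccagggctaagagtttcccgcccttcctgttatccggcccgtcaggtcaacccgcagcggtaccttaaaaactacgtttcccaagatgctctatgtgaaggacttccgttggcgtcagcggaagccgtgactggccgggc
Psmc5: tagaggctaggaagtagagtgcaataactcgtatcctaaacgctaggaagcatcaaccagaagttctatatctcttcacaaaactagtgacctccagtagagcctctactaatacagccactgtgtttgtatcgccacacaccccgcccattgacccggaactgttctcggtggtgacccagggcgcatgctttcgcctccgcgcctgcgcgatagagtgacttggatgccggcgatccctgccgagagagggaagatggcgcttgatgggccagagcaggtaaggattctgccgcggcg
Psmb5: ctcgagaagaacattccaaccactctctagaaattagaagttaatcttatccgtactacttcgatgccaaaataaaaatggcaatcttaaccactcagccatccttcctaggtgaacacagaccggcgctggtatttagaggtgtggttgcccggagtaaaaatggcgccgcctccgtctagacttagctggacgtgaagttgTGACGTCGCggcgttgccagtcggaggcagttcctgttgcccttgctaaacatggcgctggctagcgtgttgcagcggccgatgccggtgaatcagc
Psmc2 and Psmd12 thus shared the ETS letters, and Psmc4 and Psmc5 held none of the 4.

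Over all 40 genes the ETS letters were in a promoter of 9 (22.5%), against 3.89% of 32851 promoters: Psma6, Psmc1, Psmc2, Psmd6, Psmd12, Psmd13, Psme3, Psme4 and Psmg3. The antioxidant letters were in 6 genes (15%, against 12.4% of all promoters), in Psmb5, Psmb6, Psmc6, Psmd9, Psmd12 and Psme4. CCAAT was in 14 genes (35%, against 37.4%), and the interferon letters were in 7 (17.5%, against 8.56%). Of the interferon-inducible members, Psme1 held the interferon letters, Psmb9 held only CCAAT, at -8 to -4, and Psmb8 and Psmb10 held none of the 4. The activator Psme2 held none of the 4 either. The members had 43 promoters for 40 genes, of which 10 held the ETS letters, and a match is a description of letters, not of a bound factor.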

How the data were processed

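The authors deposited whole-number read counts and RPKM values per gene, over constitutive exons for RNA-Seq and over listed coding exons for Ribo-Seq, with the counted length of each gene in bases. The submitters' processing notes name Bowtie, TopHat and mm9, without versions. Depth is the sum of the deposited counts. The precision of a value rests on the gene's own reads, since 1 Ribo-Seq library (untreated KH2) had 3471152 counts but only 4870 genes over 20 reads. The members, gene lists and motifs were chosen with earlier results of these data known.

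RPKM values were used as deposited for levels, spreads and TE. Counts were tested with edgeR's quasi-likelihood test (TMM, genes at 1 CPM or more in at least 2 libraries, Benjamini-Hochberg over all genes tested, adjusted p under 0.05), with line or stage as a block and, for TE, an interaction over both assays. The line comparison had no block. Fits had few residual degrees of freedom and borrowed spread across genes. The technical pair was summed. Single pairs used genes with over 20 reads and a 1.5-fold limit, centred on the median of all genes. Every subunit class was named by its highest and lowest gene, and members past a test by size. Simulated counts with 200 changed genes tested each fit. Alternatives were DESeq2, RLE size factors, no filter, no block, each library or pair left out, each technical replicate alone, over 5 reads, a 3-fold limit, 0.5 added to RPKM, RPKM not centred, trimmed classes and 300 counted bases.

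Tools were R 4.3.3, edgeR 4.0.16, limma 3.58.1, DESeq2 1.42.0, Python 3.11.15 with matplotlib 3.10.9, pandas 2.3.3, numpy 2.4.6 and scipy 1.17.1. Exons and copies were read from NCBIM37, and promoters from RefSeq on GRCm38.p6.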

Additional observations from a re-analysis of the deposited data

How the results depend on the processing

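No paired analysis by replicate number was possible because the labels give no replicate numbers; the line or stage block stands in its place. Over the 4 Dox pairs the members called were 0, but 1 with no filter on low counts and 0 to 1 with a pair left out (1 without the KH2 pair, Psmd7). With 4-OHT the 2 members called became 1 with DESeq2, 1 with RLE size factors and 0 without the block. Between the lines the 29 became 19 to 28 with a library left out, lowest without C4. The single call in Dox footprints became 0 with DESeq2 and 0 without the block. At E13.5 the 18 members called became 13 with DESeq2 and 13 without the block. At a 3-fold limit no member passed in a single pair (0 in mRNA, 0 in footprints, 0 in TE). Adding 0.5 to RPKM left 2 mRNA values of 8, requiring over 5 reads gave 24 footprint and 26 TE values of 12 and 16, and RPKM not centred gave 48 and 50. The median SD of the core without its highest and lowest subunit was 1.13 in mRNA, 0.337 in footprints and 1.08 in TE, it was 0.391 in footprints for genes with at least 300 counted bases, and for subunits with few copies, a choice made after seeing the data, it was 0.336, 0.490 and 0.412. Of 368 alternatives for 52 values of named members, 321 kept direction and side of the threshold, 43 lost the call and 4 gained it, and none turned direction. Over all genes DESeq2 called 104 for Dox in tetO-Msi1 cells (430 by edgeR), 191 over the 4 Dox pairs (62; 608 with no filter) and 7 in Dox footprints (73; 16 with RLE size factors), and 4-OHT gave 1254 with no filter (639). The causes were not tested.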
